A study of Homo sapiens with 26 samples.

Results

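The genes described here were 10 long non-coding RNAs that host small nucleolar RNAs (snoRNAs) in their introns: GAS5, SNHG1, SNHG3, SNHG5, SNHG6, SNHG7, SNHG8, SNHG12, SNHG16 and ZFAS1. They were taken by symbol, and all 10 were found among the 26485 genes of the count tables. The RNA came from the established cell line KELLY, a human neuroblastoma in which MYCN is amplified. All lines carried a lentiviral vector inducible by doxycycline, with green fluorescent protein. The vector was empty (F1HUTG in the labels, EV here) or held a hairpin that targets RUNX1T1, of which there were 2, sh4 and shAMB. The purpose was to see what the cells express when RUNX1T1, a transcriptional co-repressor, is depleted. The 3 lines were treated for 72 h with DMSO, the solvent, or with doxycycline (6 groups of 3 libraries). Tumors of KELLY cells gave another 8 libraries, 4 with genotype WT on control food and 4 labelled RUNX1T1 KO on doxycycline food. Per the methods of the study, these tumors grew under the skin of young female NOD SCID gamma mice from cells carrying an inducible hairpin, so that the KO label denotes hairpin induction by doxycycline rather than a deleted gene. The empty-vector line with doxycycline therefore controls for the drug in culture, while drug and hairpin induction cannot be told apart in the tumors. By the paper, the KELLY tumors carried its hairpin built on an Ambion siRNA sequence. The name shAMB points to that hairpin, though the labels do not say so. The tumors are thus not taken as another hairpin beside sh4 and shAMB.

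The label check came first. RUNX1T1 itself was at 24.3 to 44.1 CPM (its count relative to the effective size of the library) in the 26 libraries, and its RNA passed the test with doxycycline in none of the 3 lines nor in the tumors, with log2 fold changes of -0.16 (EV), -0.11 (sh4), 0.06 (shAMB) and -0.23 (tumors) (edgeR's quasi-likelihood test, adjusted p = 0.672, 0.117, 0.378 and 0.229). With DMSO alone its RNA was lower in sh4 than in EV (-0.29, adjusted p = 0.0144), and its response to doxycycline in shAMB was above that of EV (0.21, adjusted p = 0.0353). These comparisons are therefore named by line and treatment below. The paper measured the depletion as protein, and reports less RUNX1T1 on western blots of doxycycline-treated KELLY cells with each of its hairpins. It also reports loss of the protein by immunostaining in KELLY tumors at the earlier of its timepoints. The counts used here hold RNA only, so that depletion of the protein was not tested. Sympathetic neuroblast markers of the labelled cell type were present, with HAND2 at 177 to 426 CPM and GATA3 at 23.8 to 130 CPM across all libraries. TH, the marker that reached the lowest level, was at 3.52 to 48.2 CPM in culture and 9.67 to 59.4 CPM in the tumors. Of 5 markers of other cell types, PTPRC, ALB, PECAM1 and CD68 were at most 1.97 CPM and COL1A1 at 2.92 to 35.5 CPM. Total counts were 35115915 to 54736733 in culture and 47346063 to 62378060 in the tumors. The sh4 library with doxycycline numbered 3 stood apart from the other 2 of its group, at 45.9 to 62.7 chi-square per degree of freedom against 6.11 between those 2. With DMSO, libraries 1 and 3 were at 33.6 in EV and 34.8 in sh4. Tumor libraries of the same group lay at 27.5 to 248, highest between the control ones numbered 1 and 2. Nothing in the labels says whether the replicates were separate cultures, so that p-values measure the spread between these samples.

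snoRNAs are cut from introns of their hosts, after which box C/D snoRNAs guide ribose methylation and box H/ACA snoRNAs guide pseudouridylation of ribosomal RNA. The spliced exons of the hosts that remain have little coding potential and are often degraded by nonsense-mediated decay (NMD), a pathway coupled to translation. Many host transcripts, like the mRNAs of ribosomal proteins, begin with a run of pyrimidines, the terminal oligopyrimidine motif through which translation follows growth signals. Host RNA levels thus measure the spliced exons, not the snoRNAs.

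The bases around the annotated start are printed below to show where such runs lie. RefSeq promoter windows (GRCh38.p14) were used for 9 of the 10 genes. SNHG6 was left out of this step, so the motif counts below do not cover it. Each line holds 80 bases of the gene's strand, 40 before the annotated start and 40 from it on. The longest run of C or T found between 20 bases before and 30 after the start is in capitals, the first of them where runs tie, as in SNHG1.
GAS5, chr1:173869006-173869085, minus strand: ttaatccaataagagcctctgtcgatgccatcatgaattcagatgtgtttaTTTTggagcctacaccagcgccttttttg
SNHG1, chr11:62855846-62855925, minus strand: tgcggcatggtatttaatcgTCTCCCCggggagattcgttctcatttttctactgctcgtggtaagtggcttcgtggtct
SNHG3, chr1:28505903-28505982, plus strand: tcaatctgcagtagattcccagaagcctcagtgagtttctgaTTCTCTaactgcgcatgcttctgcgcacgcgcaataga
SNHG5, chr6:85678694-85678773, minus strand: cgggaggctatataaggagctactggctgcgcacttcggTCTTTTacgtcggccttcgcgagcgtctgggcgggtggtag
SNHG7, chr9:136728145-136728224, minus strand: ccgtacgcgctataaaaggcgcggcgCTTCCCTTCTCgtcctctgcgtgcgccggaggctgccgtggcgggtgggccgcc
SNHG8, chr4:118278722-118278801, plus strand: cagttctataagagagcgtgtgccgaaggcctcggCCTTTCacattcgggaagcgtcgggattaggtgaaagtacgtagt
SNHG12, chr1:28581834-28581913, minus strand: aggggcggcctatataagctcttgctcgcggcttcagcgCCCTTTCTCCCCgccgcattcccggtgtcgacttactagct
SNHG16, chr17:76557724-76557803, plus strand: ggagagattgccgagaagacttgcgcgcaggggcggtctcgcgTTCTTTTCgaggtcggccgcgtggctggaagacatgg
ZFAS1, chr20:49278602-49278681, plus strand: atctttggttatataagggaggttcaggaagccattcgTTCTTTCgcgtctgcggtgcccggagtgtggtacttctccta

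Within that narrower range a run of at least 6 pyrimidines was present in 8 of the 9 genes (all but GAS5), against 43.3% of 27303 RefSeq promoters, and a run of at least 8 in 3 of 9 against 19.8%. A longer run near the end of the printed GAS5 line lies just past the range and was not scored, so the count depends on the range and the annotated start. In SNHG5, SNHG8, SNHG12 and ZFAS1 the run spans or adjoins the annotated start. TATAA or TTATA between 45 and 10 bases before the start was found in SNHG5, SNHG7, SNHG8, SNHG12 and ZFAS1, against 5.64% of promoters. The E-box CACGTG, the same on both strands and bound by MYC family proteins, was found in 1 of the 9 windows of 300 bases, that of SNHG7, against 7.44%. The motifs were picked with the sequences in view, and a match is a description of letters, not of a site in use.

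Per kilobase of the deposited gene length, GAS5 was the highest of the 10 in the empty-vector line with DMSO, at 272.5 ± 7.99 CPM per kb (SD, n = 3). SNHG5 (201.5 ± 6.42) and SNHG1 (186.5 ± 12.2) followed, and the libraries of this pair overlapped. SNHG16, SNHG6, ZFAS1, SNHG8, SNHG3 and SNHG7 came next, from 129.7 down to 45.4 CPM per kb, and SNHG12 was lowest at 16.5 ± 1.52. No other neighbours in this order overlapped. In the control tumors, which were normalized apart from the culture, SNHG16 led with 399.2 ± 43.6 CPM per kb (n = 4), and its libraries overlapped those of GAS5. SNHG16 made up 57.7% of the summed CPM of the 10 genes in control tumors and 28.2% in the empty-vector line with DMSO, 2 values that were not tested against each other.

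Doxycycline alone left the hosts near their DMSO level. In the empty-vector line the log2 fold changes ran from -0.12 (SNHG1) to 0.12 (SNHG7) with a median of -0.013, beside 0.0099 over all genes tested. None of the 10 passed the test at an adjusted p under 0.05 by edgeR, DESeq2 or limma, or had an unadjusted p under 0.05 by edgeR, where 0.0939% of 14905 genes passed by edgeR in either direction. The summed level of the 10 hosts was 1149 ± 23.1 CPM with DMSO and 1148 ± 8.85 CPM with doxycycline (SD, n = 3). Before any doxycycline, neither hairpin line differed from the empty-vector line in a host that passed the test (0 of 10 in each, where 1.12% of genes passed for sh4 and 1.52% for shAMB), with log2 differences of -0.23 to 0.19 and -0.16 to 0.08. At an unadjusted p under 0.05 by edgeR there were 4 and 1 of them, where 4180 and 1639 of the 14905 genes were, and DESeq2 called 1 and 0.

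With doxycycline most hosts fell in both hairpin lines, each line with 1 exception. In sh4, 9 of 10 fell, where 18% of all genes tested did, and SNHG16 rose, where 22.9% did. In shAMB, 9 of 10 fell against 28.4% of all genes, and GAS5 did not pass the test. The median log2 fold change of the 10 was -0.58 in sh4 and -0.65 in shAMB, beside -0.0046 and 0.096 over all genes. Their summed level went from 1060 ± 19.2 to 827 ± 47.3 CPM in sh4 and from 1129 ± 29.1 to 734 ± 49.9 CPM in shAMB. In the tumors 8 of 10 fell with doxycycline food, where 19.9% of 15960 genes did, with a median of -0.55 beside 0.02, and the sum went from 1726 ± 179 to 1015 ± 58 CPM (SD, n = 4). With TPM tested by limma, 2 of the 8 (SNHG3 and SNHG5) passed in the tumors, where 12.3% of all genes did in either direction. The hosts that fell in both hairpin lines and in the tumors were SNHG1, SNHG3, SNHG5, SNHG6, SNHG7, SNHG12 and ZFAS1. SNHG8 fell in both lines but did not pass in the tumors. The share of all genes that fell in all of these comparisons was not computed. These are shares of RNA, so that fewer transcripts per cell cannot be told apart from more of other RNA.

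**Figure D1:**
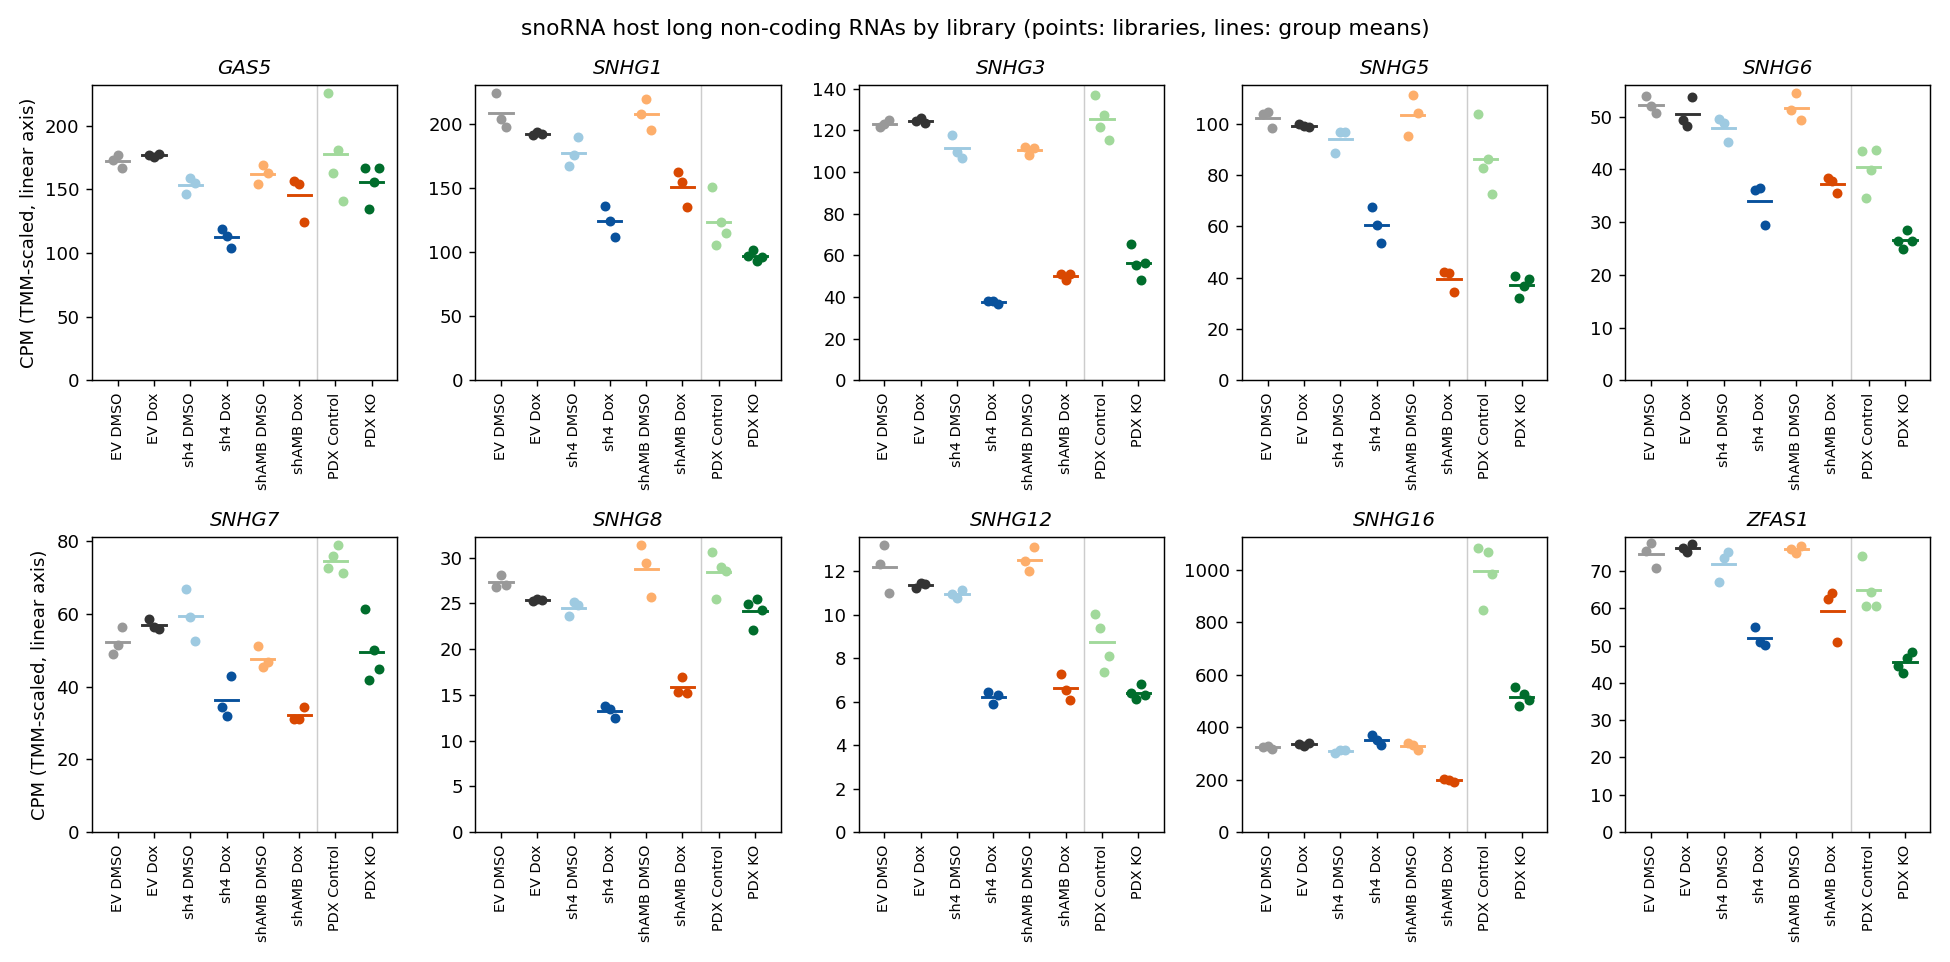
Level of each host RNA in CPM (linear axes from 0) in the 26 libraries of 8 groups, with points for libraries and lines for group means. The 3 doxycycline libraries of SNHG3 lie under 39 CPM in sh4 and under 52 CPM in shAMB, below every other culture library, and those of SNHG16 fall in shAMB but not in sh4.

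The difference between a hairpin line's response and that of the empty-vector line was tested as well. The response of sh4 was below that of EV for 9 of 10 hosts, where 14.7% of genes were, and SNHG16 was the one that did not pass (difference 0.13, adjusted p = 0.104). The response of shAMB was below that of EV for 9 of 10, where 21.7% of genes were, and GAS5 did not pass (difference -0.19, adjusted p = 0.137). These comparisons share the empty-vector libraries. With the trends in GC content and gene length removed, SNHG6 lost the call in both differences, and SNHG1 and ZFAS1 in that of shAMB. SNHG1 also lost it there without the shAMB doxycycline library numbered 3 (-0.27, adjusted p = 0.0507). With TPM tested by limma, SNHG1, SNHG6 and ZFAS1 lost the call in both differences.

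Among hosts of box H/ACA snoRNAs, SNHG3 fell furthest. It carries SNORA73A and SNORA73B, which act in the cleavage of the ribosomal RNA precursor. In sh4 its level was 118, 109.7 and 107 CPM with DMSO and 38.1, 38.3 and 36.5 CPM with doxycycline. In shAMB it was 112, 108 and 111 CPM and then 51.1, 48.1 and 50.9 CPM. Neither pair of groups overlapped, and the 6 empty-vector libraries, at 122 to 126 CPM, were above all of these. The log2 fold change was -1.57 in sh4 (SE 0.0415, adjusted p = 5.55e-13) and -1.14 in shAMB (SE 0.0409, adjusted p = 3.33e-12). In the tumors SNHG3 was at 137, 121, 127 and 115 CPM on control food and at 65.2, 55.1, 47.9 and 56.4 CPM on doxycycline food, with no overlap and a log2 fold change of -1.16 (adjusted p = 2.35e-05, SE 0.104). The SNHG3 rows share 10.96% of their exon bases with RCC1 and SNORA73A on the same strand, where reads could be split between genes.

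SNHG8, the host of SNORA24, fell in culture to a like degree in both hairpin lines. It went from 23.6, 25.1 and 24.8 to 13.8, 13.4 and 12.4 CPM in sh4, and from 31.3, 29.4 and 25.7 to 15.3, 17.0 and 15.2 CPM in shAMB. The log2 fold changes were -0.89 (SE 0.0721, adjusted p = 8.97e-08) and -0.86 (SE 0.0716, adjusted p = 4.58e-08), and the 95% interval of the difference between the lines was -0.24 to 0.19. In the tumors the same gene was at 30.6, 25.4, 29.0 and 28.6 CPM on control food and at 25.0, 22.1, 25.4 and 24.3 CPM on doxycycline food. These groups overlapped, and the log2 fold change of -0.23 did not pass the test (adjusted p = 0.0811), while without the control tumor library numbered 2 it did (-0.29, adjusted p = 0.037). Exons of PRSS12 cover 37.6% of the SNHG8 exon bases on the other strand, and no source used here states that counting kept the strands apart.

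SNHG7, which hosts H/ACA snoRNAs, and SNHG12, which hosts both kinds, fell in all 3 settings. SNHG7 was at 52.5 to 67.0 CPM with DMSO and 31.8 to 43.0 CPM with doxycycline in sh4, and its log2 fold changes were -0.71 in sh4, -0.57 in shAMB and -0.59 in the tumors (adjusted p = 3.95e-05, 0.000169 and 0.00217). SNHG12, the least abundant of the 10, was at 10.8 to 11.1 CPM with DMSO and 5.88 to 6.45 CPM with doxycycline in sh4. Its log2 fold changes were -0.82, -0.91 and -0.44 (adjusted p = 9.53e-07, 1.06e-07 and 0.0283). No groups overlapped for either gene. Exons of DIPK1B cover 30.29% of the SNHG7 exon bases on the other strand. The tumor call of SNHG12 was lost without any one of 3 libraries, the control ones numbered 1 and 2 and the KO one numbered 2, with adjusted p of 0.053, 0.0564 and 0.082. It was also lost with GC and length trends removed (-0.19, adjusted p = 0.247) and with TPM tested by limma (-0.33, adjusted p = 0.549).

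Among hosts of box C/D snoRNAs, SNHG5 fell furthest in shAMB and in the tumors. SNHG5 carries SNORD50A and SNORD50B. It was at 88.4, 96.5 and 96.8 CPM with DMSO and 67.4, 60.4 and 53.4 CPM with doxycycline in sh4, and at 95.04, 111 and 104 CPM and then 42.1, 41.9 and 34.4 CPM in shAMB. No doxycycline library reached a DMSO library of its line. The fall was -0.64 on the log2 scale in sh4 (SE 0.085, adjusted p = 1.98e-05) and -1.39 in shAMB (SE 0.0867, adjusted p = 1.75e-09), and the difference of 0.75 passed the test (SE 0.12, adjusted p = 7.86e-05). In the tumors it was at 104, 82.6, 86.4 and 72.4 CPM on control food and at 40.7, 32.01, 36.8 and 39.5 CPM on doxycycline food, with no overlap and a log2 fold change of -1.21 (adjusted p = 4.22e-05, SE 0.121).

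SNHG16 was the host whose direction differed between hairpins. It carries the SNORD1 family and had the highest CPM of the 10. In sh4 it was at 301, 315 and 312 CPM with DMSO and 369, 352 and 333 CPM with doxycycline, and it rose by 0.18 on the log2 scale (SE 0.0434, adjusted p = 0.00307). In shAMB it was at 339, 333 and 314 CPM and then 204, 198 and 190.2 CPM, and it fell by 0.74 (SE 0.0437, adjusted p = 9.97e-10). The groups did not overlap in either line, and the responses of sh4 and shAMB differed by 0.92 (SE 0.0616, adjusted p = 8.16e-09). The rise in sh4 was not told apart from the 0.05 of the empty-vector line by the main test, but it was with TPM (difference 0.35, adjusted p = 0.000614) and without the sh4 doxycycline library numbered 3 (0.17, adjusted p = 0.0255). In the tumors SNHG16 was at 1083, 846, 1071 and 986 CPM on control food and 553, 483, 528 and 503 CPM on doxycycline food, with no overlap and a log2 fold change of -0.95 (adjusted p = 6.81e-05, SE 0.104). Exons on the other strand cover 28.53% of the SNHG16 exon bases.

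GAS5, which carries 10 SNORD genes and is known to accumulate when growth stops, was the host with the smallest fold change in shAMB and in the tumors. In sh4 it was at 147, 159 and 155 CPM with DMSO and 119, 114 and 104 CPM with doxycycline, and it fell by 0.45 on the log2 scale (SE 0.0731, adjusted p = 0.000129). In shAMB it was at 154, 169 and 163 CPM and then 157, 155 and 124 CPM. These groups overlapped, with the doxycycline library numbered 3 below the other 2, and the log2 fold change of -0.16 did not pass (adjusted p = 0.0693, SE 0.0728). It passed without the DMSO library numbered 1 or the doxycycline library numbered 1 or 2 (adjusted p = 0.0497, 0.024 and 0.0398). The outcome for shAMB turned with the processing: the value was -0.23 (adjusted p = 0.0165) with RLE size factors and 0.12 (adjusted p = 0.00317) with GC and length trends removed. In the tumors it was at 226, 163, 181 and 141 CPM on control food and 167, 135, 156 and 167 CPM on doxycycline food, with overlap and a log2 fold change of -0.19 (adjusted p = 0.306, or 0.10 with GC and length trends removed).

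SNHG1, SNHG6 and ZFAS1, the other C/D hosts, fell in both hairpin lines and in the tumors. SNHG1, host of SNORD22 and the SNORD25 to SNORD31 group, fell by 0.52 in sh4, 0.46 in shAMB and 0.35 in the tumors on the log2 scale (adjusted p = 6.31e-05, 8.91e-05 and 0.0233). SNHG6, host of SNORD87, fell by 0.49, 0.47 and 0.61 (adjusted p = 6.19e-05, 4.38e-05 and 0.000855). ZFAS1, host of the SNORD12 family and antisense to the start of ZNFX1, fell by 0.47, 0.36 and 0.51 (adjusted p = 7.6e-05, 0.000424 and 0.00125). Groups of these 3 genes did not overlap in any of the 3 comparisons, and the tumor call of SNHG1 was lost with GC and length trends removed (-0.12, adjusted p = 0.199). Genes on the other strand cover 58.88% of the SNHG6 exon bases (MCMDC2) and 36.44% of those of ZFAS1.

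**Figure D2:**
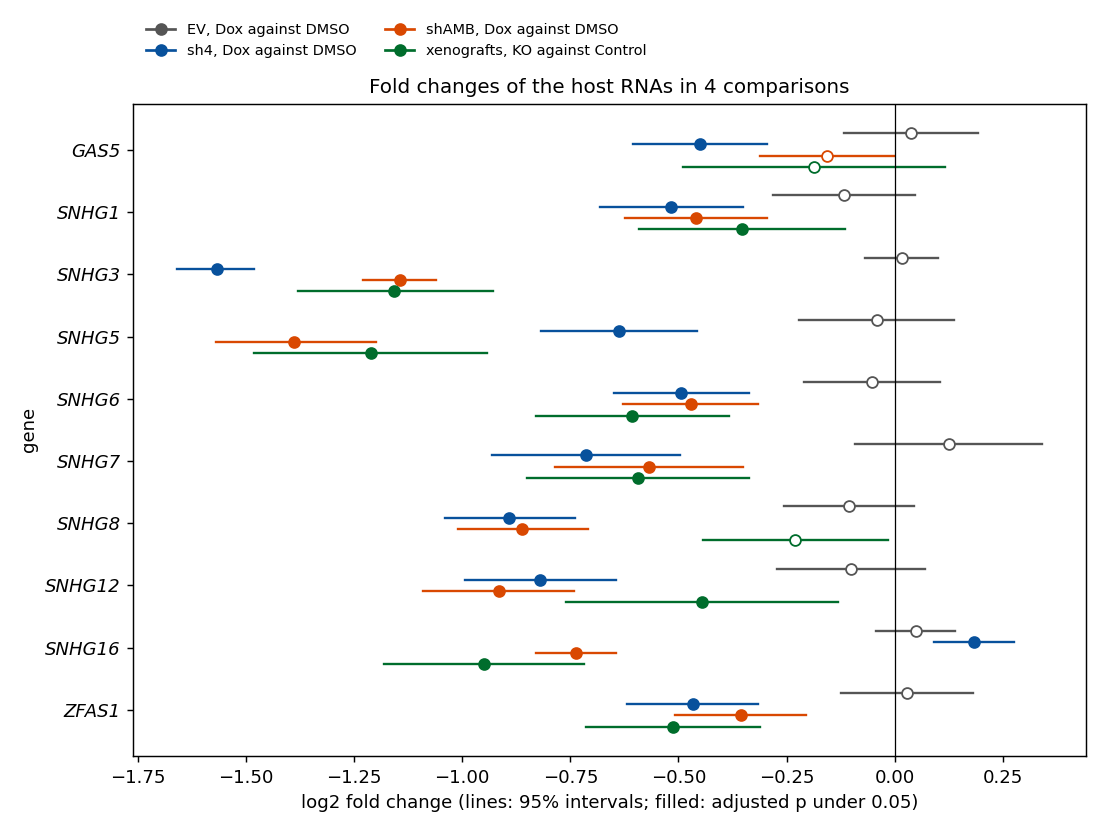
Log2 fold change of each host RNA (horizontal axis) in 4 comparisons, with 95% intervals as lines and filled points for an adjusted p under 0.05. The grey points of the empty-vector line lie about 0, the other points lie to the left except that of SNHG16 in sh4, and the widest gaps between hairpins are those of SNHG5 and SNHG16.

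Where the hairpins were compared directly, 4 of 10 hosts differed in their response, where 60.9% of all genes did. SNHG5 fell further in shAMB, and SNHG16 fell in shAMB but rose in sh4, as given above. SNHG3 fell further in sh4 (difference -0.42, SE 0.0575, adjusted p = 1.54e-05), as did GAS5 (-0.29, SE 0.103, adjusted p = 0.022). The other 6 had differences of -0.14 (SNHG7) to 0.10 (SNHG12) that did not pass. Of these, ZFAS1 passed without the shAMB doxycycline library numbered 3 (-0.21, adjusted p = 0.0299), and SNHG1 (-0.30, adjusted p = 0.000327) and, with its sign turned, SNHG7 (0.34, adjusted p = 0.00233) passed with GC and length trends removed. The call of GAS5 was lost with RLE size factors (-0.23, adjusted p = 0.0893) and with DESeq2 (-0.23, adjusted p = 0.0899), and without any one of 5 of the 12 libraries, with adjusted p of 0.0555 to 0.0844.

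The snoRNAs themselves were barely counted in culture. The tables list 36 snoRNAs of these hosts, and 27 of the 28 box C/D snoRNAs had at most 3 counts in every library, among them every one of GAS5, SNHG5, SNHG6, SNHG16 and ZFAS1. No library held a count of 25 of them, and the part that their length or the counting had in this was not tested. Box H/ACA snoRNAs, which are longer (130 to 207 bases against 43 to 126), were counted mostly in the tumors. SNORA73A, the one tested in culture, fell in sh4 (0.253 to 0.0533 CPM, log2 fold change -2.23, adjusted p = 0.00176) without overlap, and was at -0.22 in shAMB and -0.86 in EV (adjusted p = 0.657 and 0.672). The EV groups of SNORA73A did not overlap either. Its response in sh4 did not pass against that of EV by edgeR (difference -1.38, adjusted p = 0.111). It had at most 18 counts in a culture library and 24453 to 52199 in a tumor library, and SNORA73B at most 8 and then 12582 to 29229.

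In the tumors SNORA73A and SNORA73B did not follow SNHG3 past the test. SNORA73A was at 905, 1146, 616 and 856 CPM on control food and at 704, 430.1, 749 and 1003 CPM on doxycycline food. The groups overlapped, with a log2 fold change of -0.29 (95% interval -0.82 to 0.24, adjusted p = 0.371), while that of SNORA73B was -0.18 (-0.79 to 0.43, adjusted p = 0.646). The interval for SNHG3 was -1.38 to -0.93. The ratio of SNORA73A to SNHG3 was 7.08 ± 1.91 on control food and 13 ± 4.53 on doxycycline food (SD, n = 4), which did not pass an exact two-sided permutation test (p = 0.0571, where 0.0286 is the smallest possible). The share of all small RNA genes in a tumor library overlapped between groups, at 6.97% to 18.2% of counts on control food and 7.44% to 15.9% on doxycycline food. Of the other 4 snoRNAs tested there, SNORA43, SNORA24 and SNORD22 did not pass, and SNORA61 of SNHG12 rose at under 1 CPM (log2 fold change 1.62, adjusted p = 0.0494), with overlapping groups.

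**Figure D3:**
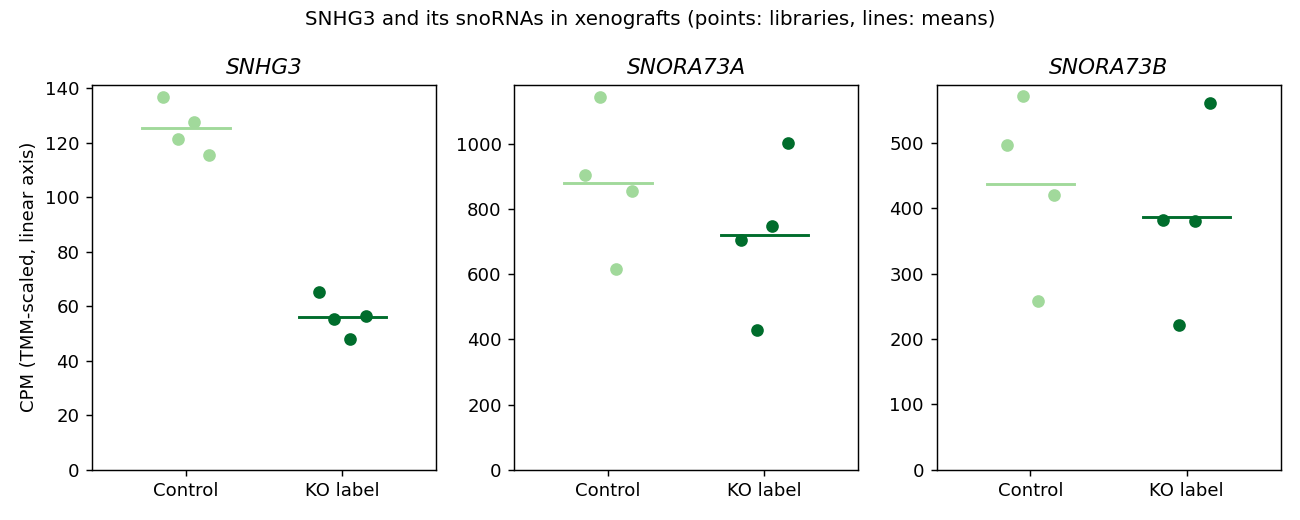
SNHG3 and its snoRNAs SNORA73A and SNORA73B in CPM (linear axes from 0) in the 8 tumor libraries, with points for libraries and lines for group means. The SNHG3 groups lie at 115 to 137 and 47.9 to 65.2 CPM without overlap, while the snoRNA groups overlap.

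Hosts outside these 10 moved in part the same way. Of 17 other long non-coding hosts 13 were tested in culture, of which 7 fell and none rose in sh4, while in shAMB 6 fell and 4 rose. Of 15 tested in the tumors 5 fell and 1 rose, MEG8, at about 1 CPM. Of all genes 18% fell in sh4, 28.4% fell and 37.6% rose in shAMB, and 19.9% fell and 21.2% rose in the tumors. The genes that rose in shAMB were SNHG9, SNHG11, SNHG15 and SNHG17, and they and MEG8 are listed here after their values were seen, apart from SNHG15. DANCR was -1.01, -1.66 and -1.96 in sh4, shAMB and the tumors on the log2 scale, LRRC75A-AS1 -1.02, -0.78 and -0.87, and SNHG4 -0.95, -0.27 and -0.47, all past the test. SNHG15 rose by 0.80 in shAMB (adjusted p = 1.39e-05) and was at -0.20 in sh4 and 0.28 in the tumors, short of the threshold. The list's median was -0.39, 0.028 and -0.12.

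Protein-coding hosts, many of them ribosomal protein genes, fell in the majority. Of 43 genes 31 fell in sh4 and none rose, 24 fell and 3 rose in shAMB, and 27 fell and none rose in the tumors, with medians of -0.40, -0.20 and -0.48. Of all genes 18% fell and 22.9% rose in sh4, 28.4% fell and 37.6% rose in shAMB, and 19.9% fell and 21.2% rose in the tumors. RPL30 of the large ribosomal subunit fell by 0.41, 1.57 and 1.58, RPS12 of the small subunit by 0.73, 0.89 and 0.93, and the translation initiation helicase EIF4A1 by 0.30, 0.91 and 1.02 on the log2 scale. RPL13A fell by 1.04 in sh4 and 0.69 in the tumors and was at -0.20 in shAMB (adjusted p = 0.22). The 3 that rose in shAMB, listed after their values were seen, were EEF2 (0.49), TBRG4 (0.47) and TNPO2 (0.39). None of the 43 passed in the empty-vector line by edgeR, DESeq2 or limma, and 4 had an unadjusted p under 0.05 by edgeR, where 879 of 14905 genes did. With TPM tested by limma 2 of the 43 passed in the tumors, a smaller share than the one given above for all genes.

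The proteins that build snoRNPs fell in part. Of 8 genes 4 fell in sh4, 4 fell and 1 rose in shAMB, and 5 fell in the tumors, where none passed with TPM tested by limma, beside shares of all genes that fell of 18%, 28.4% and 19.9%. Of all genes 37.6% rose in shAMB, and the gene of this list that rose there, NOP58 (0.23), is listed after its value was seen. NHP2 of H/ACA particles fell by 0.28, 0.29 and 0.69, SNU13 of C/D particles by 0.35, 0.22 and 0.44, and FBL, the methyltransferase of C/D particles, by 0.29 in sh4 and 0.65 in the tumors but not past the test in shAMB (-0.06). GAR1 fell by 0.45 in shAMB and 0.36 in the tumors and was at 0.08 in sh4 (adjusted p = 0.362).

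Factors of NMD, which degrades spliced host RNAs, had medians near 0 in sh4 (-0.064), shAMB (0.031) and the tumors (0.0042). None of 10 passed in sh4 by edgeR, where 18% of all genes fell and 22.9% rose. At an unadjusted p under 0.05 by edgeR there was 1, where 7243 of 14905 genes were. DESeq2 called none in sh4, while limma on TPM called 4. For shAMB edgeR called 4, DESeq2 5 and limma on TPM 7. Shares of all genes by DESeq2 and limma are not given for these counts. In shAMB, where 37.6% of all genes rose and 28.4% fell, UPF1, the helicase of the pathway, rose by 0.65 (adjusted p = 0.00822), SMG9 by 0.44 and SMG5 by 0.35. UPF3A, listed after its value was seen, fell there by 0.19 (adjusted p = 0.00294). By edgeR the responses of UPF1, SMG9 and SMG5 did not pass against that of EV (adjusted p = 0.255, 0.205 and 0.534). That of UPF3A did (adjusted p = 0.0432). In the tumors SMG6, the endonuclease, fell by 0.37 (adjusted p = 0.0295) and was the 1 call of the 10, where 19.9% of all genes fell.

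**Figure D4:**
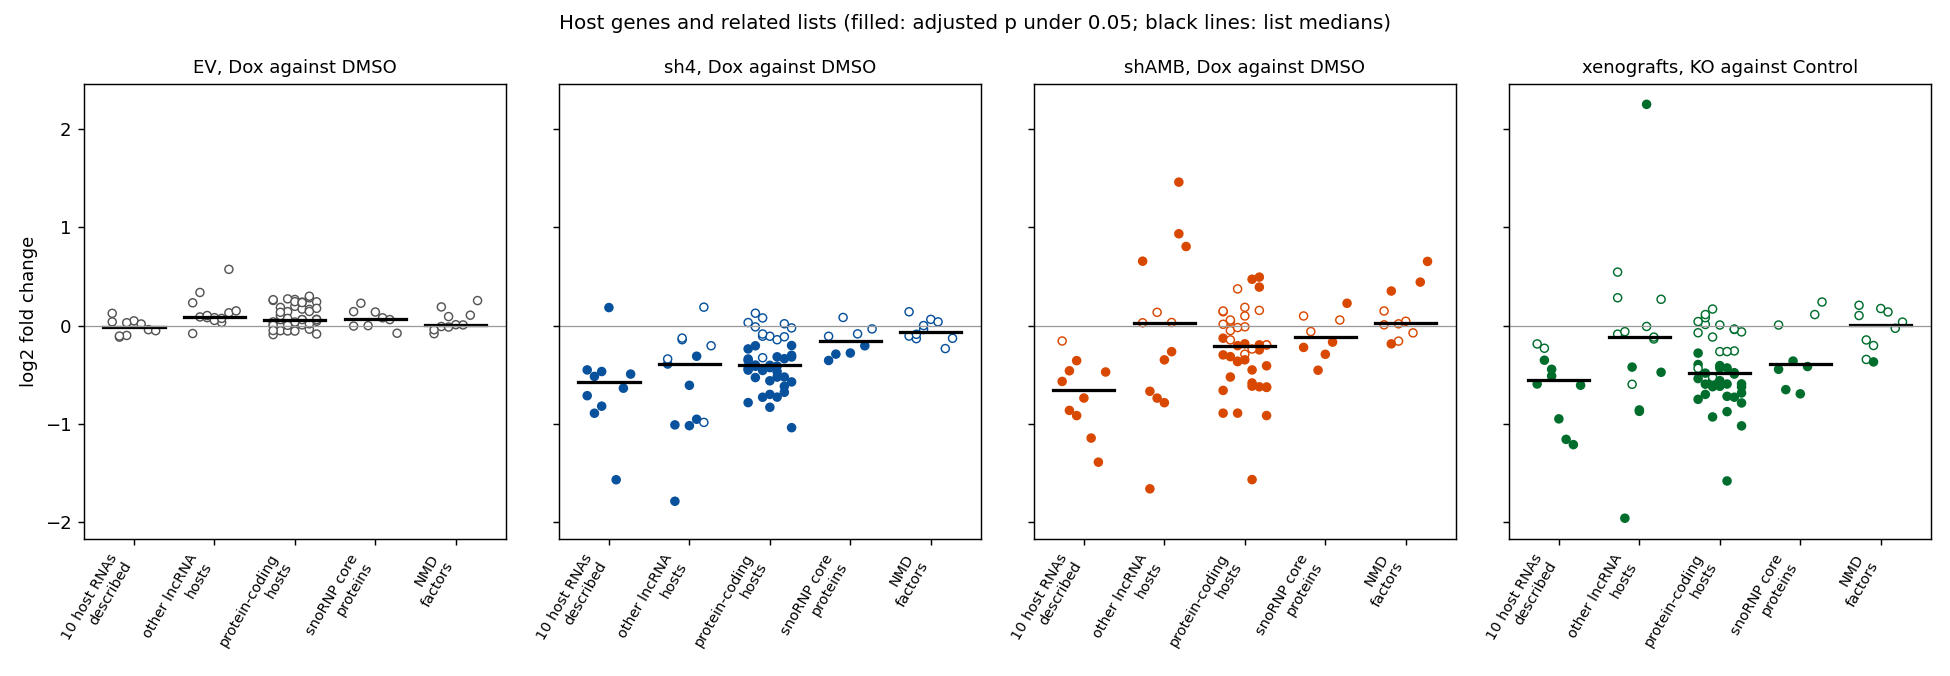
Log2 fold change (vertical axis) of every tested gene of 5 lists in the 4 comparisons, with filled points for an adjusted p under 0.05 and black lines for list medians. In the 3 comparisons other than the empty vector the medians of the 10 hosts lie at -0.58, -0.65 and -0.55, the lowest of the 5 lists in each panel, and those of NMD factors lie near 0.

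Of the genes that start on the other strand within 2000 bases of a host, 3 were in the tables, and none of them passed the test as lower in sh4, shAMB or the tumors. ZNFX1, 248 bases from the start of ZFAS1, rose in sh4 (0.59, adjusted p = 3.09e-07) and in the tumors (0.28, adjusted p = 0.0313) and was at 0.11 in shAMB. SLC3A2, the neighbour of SNHG1, rose in shAMB (0.41, adjusted p = 0.000852) and was at -0.10 in sh4 and 0.06 in the tumors. ZBTB37, 800 bases from GAS5, rose in shAMB (0.74, adjusted p = 9.04e-05) and in the tumors (0.52, adjusted p = 0.00314), where GAS5 itself did not pass, and was at 0.26 in sh4.

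Among 8756 genes with at least 10 CPM in culture and tumors, the 5 whose 4 log2 fold changes lay nearest to the hosts' medians were IAH1, GRB2, PPP1CC, TMEM246 and PHF20, at root mean square distances of 0.0422 to 0.0612. SNHG6 (0.105) and SNHG7 (0.107) were the hosts nearest to those medians, and SNHG3 (0.63) and SNHG5 (0.495) the farthest.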

How the data were processed

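The authors deposited expected counts from RSEM as well as TPM (abundances corrected for gene length and library size) for 26485 genes, in 4 tables. The deposited expected counts are estimated counts, of which 91.8% were whole in culture and 91.0% in tumors. Per the submitters' processing notes STAR, SAMtools, RSEM and hg38 were used. Strand use in counting and removal of mouse reads are not given in the sources used here. Columns headed Neg were taken as DMSO and those headed Pos as doxycycline. The labels name polyA RNA but also a total RNA kit. Counts were rounded, filtered with filterByExpr (14905 and 15960 genes), scaled by TMM and tested with edgeR 4.0.16 in R 4.3.3 (quasi-likelihood, Benjamini-Hochberg over all genes tested), with culture and tumors fitted apart. Overlap with other genes was read from the GENCODE annotation of GRCh38. Deposited TPM were tested with limma 3.58.1 on log2(TPM + 1), which understates changes of low genes, and DESeq2 1.42.0 was a further alternative. The script was tested on simulated data. The members and lists were chosen with earlier results of these data known. All 10 hosts are named. From each other list up to 4 genes are named, those with the greatest change among called genes of at least 10 CPM. Genes listed outside this rule are marked so in the text. Every column of sample values was used, and intervals reflect the spread between samples.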

Additional observations from a re-analysis of the deposited data

Results flagged for a closer look

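The responses to doxycycline differed between lines for the following hosts by edgeR's test of the difference of log2 fold changes. For sh4 minus EV the differences were -0.49 (GAS5), -0.40 (SNHG1), -1.58 (SNHG3), -0.59 (SNHG5), -0.44 (SNHG6), -0.84 (SNHG7), -0.78 (SNHG8), -0.72 (SNHG12) and -0.50 (ZFAS1), with adjusted p of 5.09e-11 (SNHG3) to 0.0114 (SNHG1). For shAMB minus EV they were -0.34 (SNHG1), -1.16 (SNHG3), -1.35 (SNHG5), -0.42 (SNHG6), -0.69 (SNHG7), -0.76 (SNHG8), -0.81 (SNHG12), -0.78 (SNHG16) and -0.39 (ZFAS1), with adjusted p of 4.46e-10 (SNHG3) to 0.0181 (SNHG1). For sh4 minus shAMB they were -0.29 (GAS5), -0.42 (SNHG3), 0.75 (SNHG5) and 0.92 (SNHG16). In the tumor groups of 4 no host had a library beyond Dixon's 95% critical value.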

How the results depend on the processing

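No host that passed the test in any comparison changed direction under any alternative run (0 of 785 values), 754 of these kept the call and 31 lost it. Of 585 values for hosts that had not passed, 47 changed direction and 15 passed with the direction kept. Among those that changed direction, GAS5 in shAMB and SNHG7 for sh4 minus shAMB passed, both with GC content and length trends removed. The count of hosts called was 10 in sh4 and 0 in EV under every alternative and 9 or 10 in shAMB. Where it was 10 in shAMB, the added host was GAS5, which fell in most such runs but rose with the GC and length fit (0.12). In the tumors it was 2 with TPM and limma, 6 with the replicate block and 6 with GC content and length trends removed, against 8. In culture TPM moved the median over all genes to 0.12 in sh4 and 0.207 in shAMB, so that changes there are relative to it. For sh4 against EV with DMSO, DESeq2 called 1 host and the GC and length fit 2, and for shAMB against EV with DMSO that fit called 1, where the main test called none. The cause was not tested.

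Leaving out 1 library gave counts of 7 to 8 in the tumors, 9 to 10 for sh4 minus EV, 8 to 9 for shAMB minus EV and 3 to 5 for sh4 minus shAMB. The replicate numbers did not pair the samples (same-numbered correlations of deviations from -0.603 to 0.374, not all over 0.1). With the replicate block the counts were 0 in EV, 10 in sh4, 9 in shAMB, 9 and 9 for sh4 and shAMB minus EV, 4 for sh4 minus shAMB, 0 and 0 for the lines with DMSO and 6 in the tumors, where SNHG1 (adjusted p = 0.0662) and SNHG12 (adjusted p = 0.0968) lost the call.

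Directions changed as follows, with log2 values after the change. In EV, SNHG3 was -0.0064 with RLE size factors and with DESeq2 and -0.026 with TPM, GAS5 -0.0048 with TPM, ZFAS1 -0.024 with TPM and with the GC and length fit, and SNHG7 -0.056 with that fit. In shAMB, GAS5 was 0.023 with TPM and 0.12 with the GC and length fit, and for shAMB minus EV 0.028 and 0.084. For sh4 minus shAMB, SNHG1, SNHG6 and SNHG8 were 0.012, 0.048 and 0.039 with RLE size factors and with DESeq2, SNHG6 0.00088 without a filter, SNHG7 0.34 and SNHG8 0.22 with the GC and length fit, and SNHG8 0.34 with TPM. For the lines with DMSO, SNHG7 was -0.10 in sh4 with the GC and length fit, SNHG6 0.016 and SNHG16 -0.035 in shAMB with it, and SNHG1 0.0016 in shAMB with RLE size factors and with DESeq2. In the tumors, GAS5 was 0.10 and SNHG8 0.041 with that fit.

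Without 1 library, directions changed for sh4 minus shAMB in SNHG1 (-0.13 to 0.043), SNHG6 (-0.072 to 0.10) and SNHG8 (-0.092 to 0.050), for EV in ZFAS1 (-0.0067 to 0.057), and for shAMB against EV with DMSO in SNHG1 (-0.050 to 0.046), SNHG5 (-0.035 to 0.076), SNHG6 (-0.056 to 0.017), SNHG12 (-0.027 to 0.10), SNHG16 (-0.00079 to 0.054) and ZFAS1 (-0.012 to 0.051). SNHG12, at 5.88 to 13.2 CPM, rests on the fewest reads.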
